A study of Arundo donax with 12 samples.

Results

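Phosphate transporters 1.4 and 1.7 are a pair of assembled transcript clusters (unigenes, Cluster-14691.45899 and Cluster-14691.51441) of giant reed (*Arundo donax* L.), a perennial grass grown for biomass and on polluted land. They were taken from the study's list of nutrient uptake unigenes, which makes them 2 of the 126668 unigenes in the deposited table, and both had counts in all 12 libraries. The study put unigenes on that list because they were differentially expressed (DEGs) between cadmium-treated root and cadmium-treated leaf and not between control root and control leaf of these same libraries. The difference between organs is therefore given below as a description. Calls in it are stated because the listing turned on them, and nothing is read from them.

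The plants were of 1 ecotype, G10, grown from stem nodes with 1 node to a pot of clay soil in open air, and no mutant or transgene was involved. Cd plants received cadmium nitrate at 4 mg per kg, and CK (control) plants received ammonium nitrate to balance the nitrogen, so the 2 treatments differ in cadmium and also in the form of the nitrogen salt. Root (R) and leaf (L) RNA was taken after about 3 months, giving the groups Cd_R, CK_R, Cd_L and CK_L with 3 libraries each. The records name 3 biological replicates per treatment and 6 pots in all, so root and leaf libraries share pots, and which ones do is not stated. The pots stood in a randomized block scheme, and whether a replicate number marks a block is not stated either.

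Plants take up phosphorus as inorganic phosphate through the PHT1 family, symporters of the plasma membrane that carry phosphate into the cell together with protons. The family also carries arsenate, which resembles phosphate. PHT1 genes are typically most active in root epidermis and root hairs and are induced when phosphate is scarce, under transcription factors of the PHR family. SPX proteins, which bind inositol pyrophosphates when phosphate is plentiful, hold these factors back. In *Arabidopsis thaliana*, phosphate transporter 1.4 is one of the main high-affinity carriers of the root. The names of the giant reed unigenes rest on sequence matches alone. The best protein match was in *Lolium perenne* for transporter 1.4 and in *Panicum hallii* var. *hallii* for transporter 1.7. The unigenes were assembled without a genome, so no chromosome position is given.

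Total counts per library ranged from 22157170 to 26033492. The first principal component of all unigenes held 76.4% of the variance and separated root from leaf libraries, which is the only check of the organ labels available because the table names no marker genes. Cd_R replicate 1 and CK_R replicate 3 stood apart from the other root libraries on the second component (171 and 147, against -119 to -41.4). They also had more unigenes with a count, 105247 and 100351, against 81443 to 87750 in the other 4 root libraries. The cadmium changes, the organ differences and the correlations in root are given with and without them. The expected counts of transporter 1.4 were whole numbers in 0 of 12 libraries and those of transporter 1.7 in 1 of 12, against 88.6% of all values in the table (within 0.005 of a whole number). Reads of both were thus divided between similar unigenes by the counting program, and how much of each level belongs to near-identical copies is uncertain.

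Phosphate transporter 1.4 was the higher counted of the pair, and its highest libraries were in root. In CPM (counts per 1000000 counts, scaled between libraries by TMM, a trimmed mean of ratios), its level was 144, 41.6 and 46.1 in Cd_R replicates 1, 2 and 3. In CK_R it was 43.5, 27.8 and 86.4 CPM. The leaf libraries had 21.5, 19.1 and 14.5 CPM in Cd_L, against 43.0, 24.2 and 18.0 CPM in CK_L. Within root, the libraries Cd_R replicate 1 and CK_R replicate 3 were the highest, and the other 4 lay between 27.8 and 46.1 CPM. Group means were 77.3 ± 58.0 CPM in Cd_R, 52.6 ± 30.3 CPM in CK_R, 18.4 ± 3.55 CPM in Cd_L and 28.4 ± 13.02 CPM in CK_L (SD, n = 3 each). Ordered from the highest mean, the groups ran Cd_R, CK_R, CK_L, Cd_L, and each neighbouring pair in that order overlapped.

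Phosphate transporter 1.7 had a similar layout at lower counts, from 17.0 expected counts in Cd_L replicate 3 to 638 in CK_R replicate 3. Its level was 21.5, 6.74 and 7.09 CPM in Cd_R, and 3.70, 9.93 and 21.2 CPM in CK_R. In leaf it was 2.55, 4.46 and 0.909 CPM in Cd_L, against 15.6, 3.71 and 5.32 CPM in CK_L. The highest library of each root group was again Cd_R replicate 1 or CK_R replicate 3, with nearly equal values, and CK_L replicate 1 was the highest leaf library for both unigenes. Means were 11.8 ± 8.42 CPM in Cd_R, 11.6 ± 8.87 CPM in CK_R, 2.64 ± 1.78 CPM in Cd_L and 8.20 ± 6.42 CPM in CK_L (SD, n = 3 each). The order of the groups was that of transporter 1.4, and neighbouring groups overlapped here too. Levels of the 2 unigenes are not compared with each other, since their lengths were not used here.

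**Figure D1:**
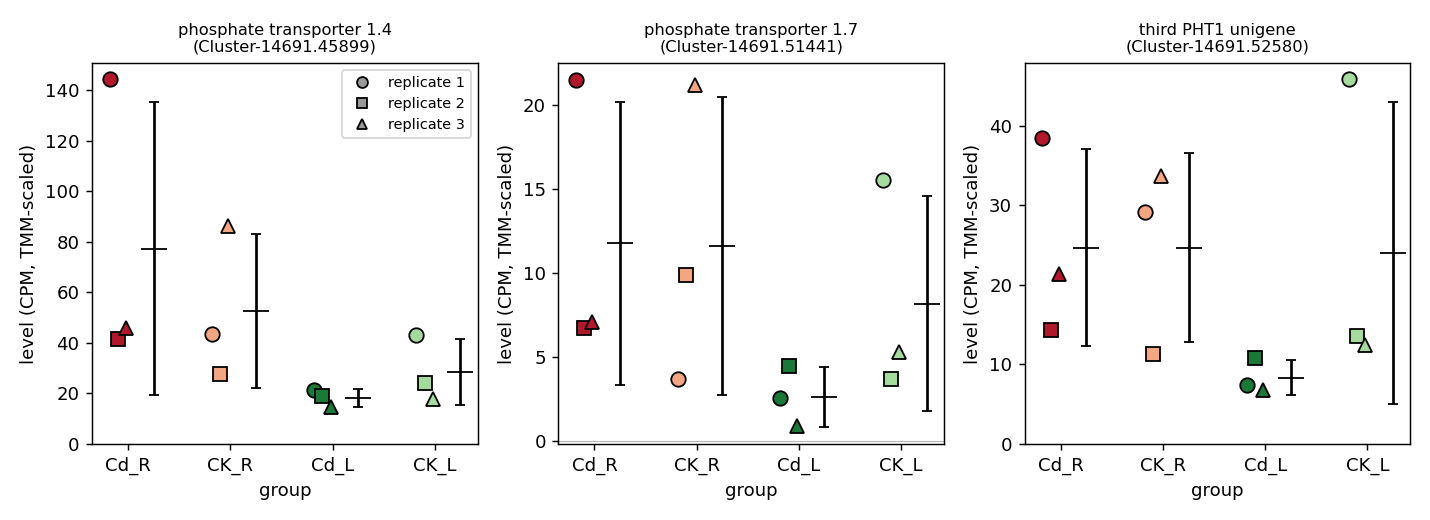
Levels of phosphate transporter 1.4, phosphate transporter 1.7 and the third PHT1 unigene (Cluster-14691.52580) in CPM, by group; points are libraries with 1 symbol per replicate number, and bars are the mean ± SD of 3 libraries. Cd_R replicate 1 and CK_R replicate 3 are the highest root libraries in each panel, and CK_L replicate 1 is the highest leaf library.

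The first comparison asked whether cadmium changed the transporters in root. Neither was a DEG in Cd_R vs CK_R, where a call needed an adjusted p no higher than 0.05 and at least a doubling or halving (a log2 fold change of 1 or more, up or down). For transporter 1.4 the log2 fold change was 0.54 (SE 0.62, 95% interval -0.94 to 2.02), with an unadjusted p of 0.412 and an adjusted p of 0.999 in the quasi-likelihood test of edgeR, adjusted by Benjamini-Hochberg over all unigenes tested. For transporter 1.7 it was 0.00 (SE 0.72, interval -1.72 to 1.73, unadjusted p = 0.996, adjusted p = 1.00 in the same test), with close means in both groups. These intervals still hold changes of over 2-fold in either direction for transporter 1.7, and upward for transporter 1.4. Across the table, edgeR called 0 of 55317 unigenes (0%) in this comparison, 4.62% had an unadjusted p under 0.05, and DESeq2 called 185, the transporters not among them. Cd_R and CK_R overlapped for both transporters, while 9.77% of all unigenes tested had groups that did not overlap.

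The sign in root depended on single libraries, first on those that stood apart. Without CK_R replicate 3 the log2 fold changes were 1.12 for transporter 1.4 and 0.80 for transporter 1.7. Without Cd_R replicate 1 they were -0.28 and -0.76. Transporter 1.7 was also at -0.42 without CK_R replicate 1 and at -0.10 without CK_R replicate 2. With Cd_R replicate 1 and CK_R replicate 3 both left out, the remaining 2 libraries per group gave 0.30 (SE 0.30) and 0.02 (SE 0.50), with means of 43.8 CPM in Cd_R and 35.7 CPM in CK_R for transporter 1.4, and 6.91 CPM in Cd_R and 6.81 CPM in CK_R for transporter 1.7. No setting called either unigene in Cd_R vs CK_R.

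In leaf both transporters had lower means in Cd_L than in CK_L, and neither passed the test. The log2 fold change was -0.62 for transporter 1.4 (SE 0.35, 95% interval -1.43 to 0.18, unadjusted p = 0.111) and -1.61 for transporter 1.7 (SE 0.70, interval -3.22 to 0.01, unadjusted p = 0.0506), with an adjusted p of 1.00 for both in edgeR's test. The levels of Cd_L and CK_L overlapped for both unigenes. The listing favours downward values in leaf and upward values in root, so these signs and p-values are no independent evidence. With 1 library left out, the leaf log2 fold change reached -0.86 for transporter 1.4 (CK_L replicate 3) and -2.26 for transporter 1.7 (Cd_L replicate 2). The difference was smaller without CK_L replicate 1, when the log2 fold changes were -0.18 for transporter 1.4 and -0.73 for transporter 1.7. Its total count, 26033492, and its number of unigenes with a count, 80975, were the highest of the leaf libraries, and their part in the result was not tested. EdgeR called 0 of 48194 unigenes (0%) in leaf, 4.25% had an unadjusted p under 0.05, and DESeq2 called 73, again without the transporters.

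The interaction of organ and treatment, the cadmium change in root minus that in leaf, was positive for both and did not pass the test. It was 1.19 on the log2 scale for transporter 1.4 (SE 0.76, 95% interval -0.49 to 2.86, unadjusted p = 0.148) and 1.65 for transporter 1.7 (SE 1.09, interval -0.75 to 4.05, unadjusted p = 0.159). The adjusted p was 1.00 for both in edgeR's test, which called 0 of 61242 unigenes (0%). There, 3.17% of unigenes had an unadjusted p under 0.05, and DESeq2 called 10, the transporters not included. The study's choice of unigenes favours a positive interaction, so its sign carries no independent weight. The fit treated the 12 libraries as independent, although root and leaf libraries share pots. For transporter 1.7 the interaction is made up of a root change of 0.02 and a leaf change of -1.63 in this fit of 12 libraries. Transporter 1.4 divided it more evenly, with 0.56 in root and -0.63 in leaf. Without CK_L replicate 1 the interaction was 0.75 for transporter 1.4 and 0.79 for transporter 1.7, and without Cd_R replicate 1 it was 0.37 and 0.87. Without CK_R replicate 3 it was larger, at 1.69 and 2.34. With Cd_R replicate 1 and CK_R replicate 3 both left out, it was 0.90 and 1.61.

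**Figure D2:**
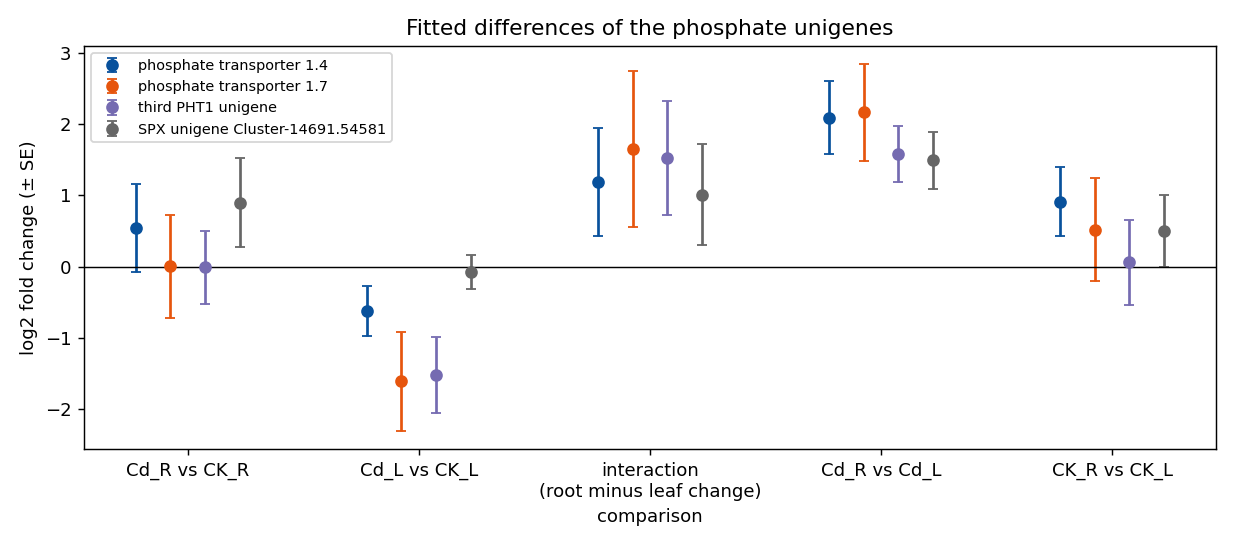
Fitted log2 fold changes (points) with their SE (bars) for 4 phosphate unigenes in 5 comparisons, each with the first-named group over the second; the interaction is the root change minus the leaf change. In root the cadmium changes lie between -0.01 and 0.90, the 3 transporters lie below 0 in leaf, and Cd_R lies above Cd_L for each unigene shown.

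Between organs, both transporters had higher levels in root than in leaf under cadmium, by the rule that placed them on the list. The ratio of mean CPM in Cd_R to that in Cd_L was 4.21 for transporter 1.4 and 4.46 for transporter 1.7. The fitted log2 fold changes were 2.09 (SE 0.51) and 2.16 (SE 0.68), both unigenes were called higher in Cd_R, and every Cd_R library lay above every Cd_L library. Of all unigenes tested in this comparison 40.9% were called, 23% were called higher, and 59.6% had groups that did not overlap. In control plants the ratio of CK_R to CK_L was 1.85 for transporter 1.4 and 1.42 for transporter 1.7. There the log2 fold changes were 0.91 (SE 0.48) and 0.52 (SE 0.72), with overlapping groups and no call, where 39.1% of unigenes were called, 22.3% were called higher and 55% had groups that did not overlap. The root means of transporter 1.7 were close in the 2 treatments, 11.8 CPM in Cd_R and 11.6 CPM in CK_R. Its leaf means were not, at 2.64 CPM in Cd_L and 8.20 CPM in CK_L.

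Leaving out single libraries changed calls of the organ difference, and in some cases its size. In Cd_R vs Cd_L, transporter 1.4 was not called without Cd_L replicate 2 or Cd_L replicate 3, although the log2 fold change stayed at 2.10 and 1.92. Transporter 1.7 was not called without Cd_L replicate 1, Cd_L replicate 3 or Cd_R replicate 1, with log2 fold changes of 2.11, 1.74 and 1.41, nor without a filter on low counts (2.18). Without Cd_R replicate 1 the value for transporter 1.4 was 1.30. In CK_R vs CK_L, leaving out CK_R replicate 3 gave 0.37 for transporter 1.4 and -0.22 for transporter 1.7. Scaling by library totals in place of TMM gave 2.65 and 2.69 in Cd_R vs Cd_L, while it moved the median of all unigenes by 0.54.

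The transporters were then compared across libraries of 1 organ. Over the 6 root libraries, Pearson's r of their log2 CPM was 0.72 (exact two-sided permutation p = 0.0986, adjusted p = 0.256 over 14 relations) with a Spearman's rho of 0.60 (exact permutation p = 0.242, adjusted p = 0.553). After each treatment's mean was subtracted, r was 0.74 (exact permutation within treatments, p = 0.139). The libraries farthest from the median of transporter 1.4 were Cd_R replicate 1 and CK_R replicate 3, and without them r was -0.67 over 4 libraries. The relation in root thus rests on these libraries, and the other 4 are too few for a test. Over the 6 leaf libraries r was 0.85 (exact permutation p = 0.0556, adjusted p = 0.256) and rho 0.49 (exact permutation p = 0.356). Without CK_L replicate 1 and Cd_L replicate 3, the farthest from the median, r in leaf was -0.63.

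The expected count of transporter 1.7 as a percentage of that of transporter 1.4 relates the pair inside each library, free of the scaling between libraries. It was 14.9%, 16.2% and 15.4% in Cd_R, against 8.48%, 35.7% and 24.5% in CK_R. In leaf it was 11.9%, 23.3% and 6.26% in Cd_L, against 36.2%, 15.2% and 29.6% in CK_L. The Cd_R libraries had nearly the same percentage although Cd_R replicate 1 had about 3 times the level of both unigenes. The other groups each spread over more than 2-fold and overlapped with one another. This percentage was computed after the levels had been seen, it is a description, and it depends on the lengths of the unigenes.

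**Figure D3:**
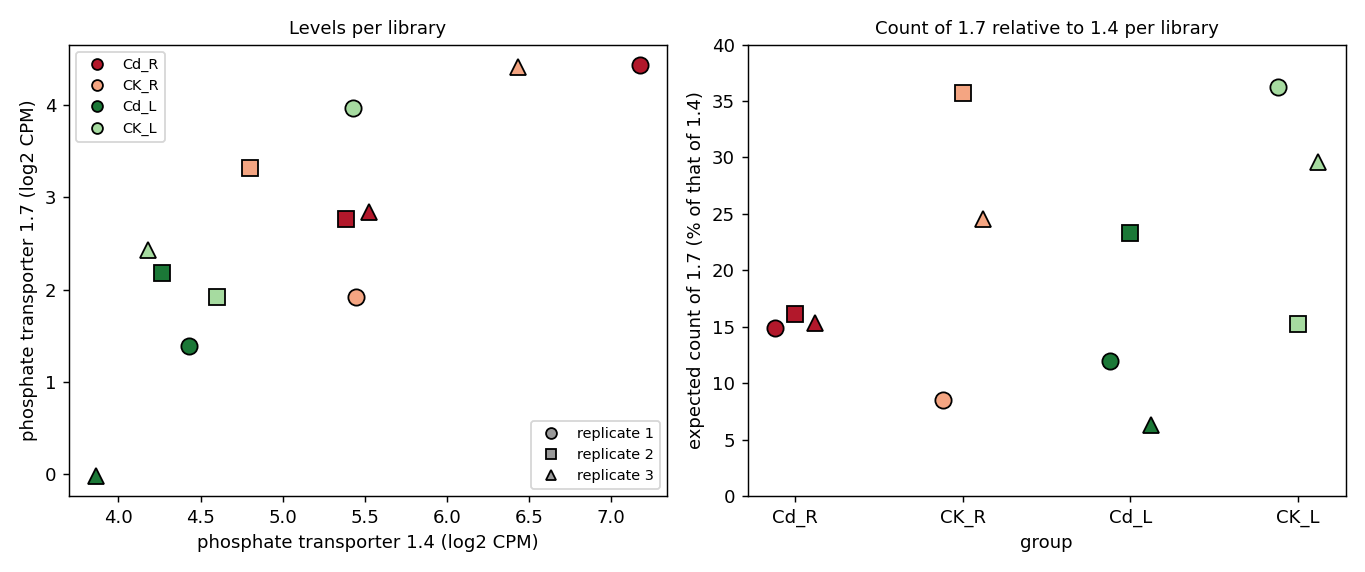
Left, log2 CPM of phosphate transporter 1.7 against that of phosphate transporter 1.4 in 12 libraries; right, expected count of transporter 1.7 as a percentage of that of transporter 1.4, by group. Cd_R replicate 1 and CK_R replicate 3 lie at the upper right of the left panel, and the Cd_R percentages lie between 14.9% and 16.2%.

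Transporter 1.4 was also compared with the number of unigenes with a count, a measure of how broad a library is. Over the 6 root libraries r was 0.99 (exact permutation p = 0.00278, adjusted p = 0.0389 over 14 relations) and rho 0.94 (exact permutation p = 0.0167, adjusted p = 0.117). Without Cd_R replicate 1 and CK_R replicate 3, r was 0.97 over 4 libraries. For transporter 1.7 the corresponding values were r = 0.77 (exact permutation p = 0.0986, adjusted p = 0.256), rho = 0.49 (exact permutation p = 0.356, adjusted p = 0.553) and r = -0.82 over 4 libraries. With the total count, r was 0.01 for transporter 1.4 (exact permutation p = 0.981) and -0.17 for transporter 1.7 (exact permutation p = 0.758), and without the same libraries 0.02 and -0.71. The relation with breadth was not computed for all unigenes, so the share that follows breadth as closely in root is not known. The r of 0.99 is therefore not read as particular to transporter 1.4. The part of library breadth in the levels of the transporters was not tested.

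**Figure D4:**
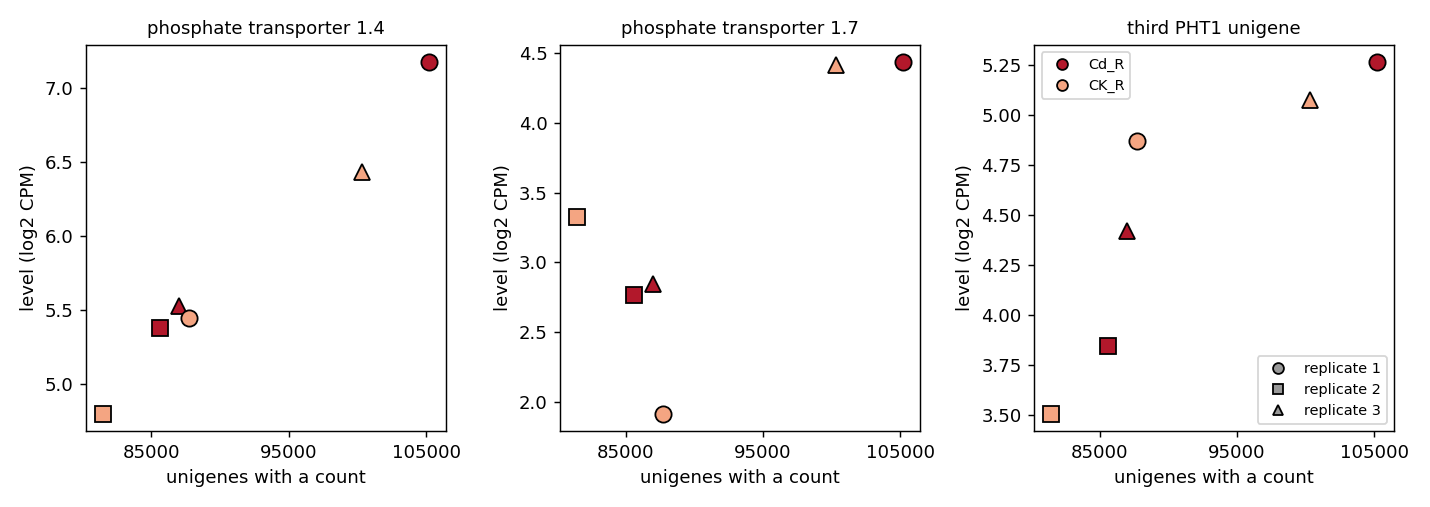
Level in log2 CPM against the number of unigenes with a count, over 6 root libraries, for phosphate transporter 1.4, phosphate transporter 1.7 and the third PHT1 unigene. Over the 6 libraries r is 0.99 for transporter 1.4 and 0.77 for transporter 1.7. Without the broadest pair of libraries, r over 4 libraries is 0.97 for transporter 1.4 and -0.82 for transporter 1.7.

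The study's list holds 4 more phosphorus unigenes, the third PHT1 unigene (Cluster-14691.52580, best match in *Panicum miliaceum*) and 3 unigenes for SPX regulators. The third PHT1 unigene had 38.4, 14.3 and 21.4 CPM in Cd_R, against 29.2, 11.3 and 33.6 CPM in CK_R. In leaf it had 7.36, 10.9 and 6.79 CPM in Cd_L, against 45.8, 13.6 and 12.5 CPM in CK_L. CK_L replicate 1 was its highest library of all, and every Cd_L library lay below every CK_L library. In leaf, 9.36% of all unigenes tested had groups that did not overlap. The list's rule favours low Cd_L levels for this unigene too, so its leaf separation and leaf p-value are no independent evidence. Its log2 fold change was -0.01 in Cd_R vs CK_R (SE 0.51) and -1.52 in Cd_L vs CK_L (SE 0.53, unadjusted p = 0.0223, adjusted p = 1.00 in edgeR's test), so no call was made. The layout of the third PHT1 unigene was thus that of transporter 1.7, with equal means in the root groups (24.7 CPM in both Cd_R and CK_R) and a lower mean in Cd_L (8.34 CPM) than in CK_L (24.0 CPM). Across root libraries it followed transporter 1.4 (r = 0.85, exact permutation p = 0.0292, adjusted p = 0.204) with a higher coefficient than transporter 1.7 (r = 0.39, exact permutation p = 0.425, adjusted p = 0.569). Without Cd_R replicate 1 and CK_R replicate 3, r over 4 libraries was 0.77 with transporter 1.4 and -0.89 with transporter 1.7. The difference between these coefficients was not tested. Expected counts of the third PHT1 unigene were whole numbers in 0 of 12 libraries, so its reads too were divided between similar unigenes. Whether reads shared among the PHT1 unigenes affect their levels or these coefficients was not tested.

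The SPX unigene with the highest count, Cluster-14691.54581, had 44.3, 47.1 and 16.7 CPM in Cd_R, against 7.36, 16.05 and 33.9 CPM in CK_R. Its leaf values stayed between 10.2 and 14.5 CPM in Cd_L, and between 11.4 and 16.3 CPM in CK_L. Its log2 fold change was 0.90 in root (SE 0.62, unadjusted p = 0.196) and -0.08 in leaf (SE 0.24, unadjusted p = 0.754), with an adjusted p of 0.999 in root and 1.00 in leaf by edgeR's test. Unlike the transporters, it was high in Cd_R replicate 2, a library in which neither of them was. Across root libraries its r was 0.55 with transporter 1.4 and 0.70 with transporter 1.7 (exact permutation p = 0.269 and 0.139), and without Cd_R replicate 1 and CK_R replicate 3 it was -0.02 and 0.51 over 4 libraries. The other 2 SPX unigenes were barely counted. Cluster-14691.81540 had 31, 21 and 17 counts in Cd_R, against 0, 8 and 11 in CK_R, while Cd_L libraries had 0 counts and CK_L libraries at most 1. Cluster-14691.81539 had 27, 23 and 7 counts in Cd_R, against 3, 18 and 19 in CK_R, with 0 counts in each Cd_L library and 1 or 2 in each CK_L library. Both were left out of the leaf comparison by the filter on low counts, and their leaf counts are at or under the 3 counts that a count of 0 allows.

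Of these 6 phosphorus unigenes, 0 were called in Cd_R vs CK_R and 0 of the 4 tested in Cd_L vs CK_L. Their median log2 fold change was 0.49 in root and -1.07 in leaf, beside -0.02 and -0.01 over all unigenes tested. All 4 tested in leaf had negative values. Listing by Cd_R over Cd_L, without an organ difference in control plants, favours upward values in root and downward values in leaf, so these signs are no independent evidence. In Cd_R vs Cd_L, 5 of 5 tested were called higher in Cd_R, beside 23% of all unigenes, and 0 of 4 were called in CK_R vs CK_L, beside 39.1%. The list's rule sets both counts.

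The wider nutrient uptake list, as used here with 17 unigenes, adds 11 that act in nitrogen and iron supply. In Cd_R vs CK_R, 0 of 17 were called, 14 had positive log2 fold changes, and the median was 0.90, where 26681 of all 55317 unigenes tested were positive. The same choice of unigenes favours these positive values. In Cd_L vs CK_L, 0 of the 10 tested were called and the median was -0.16. The transporters, at 0.54 and 0.00, lay below the list's median in root, and at -0.62 and -1.61 below it in leaf. The 3 root unigenes with an unadjusted p under 0.05 (4.62% of all unigenes tested) encode CEP peptides, which signal nitrogen shortage from root to shoot. Their highest library was Cd_R replicate 2, with 165 counts of Cluster-14691.1727, against 15 in Cd_R replicate 1 and 47 in Cd_R replicate 3. In CK_R, Cluster-14691.1727 had 0, 0 and 10 counts, so it passed the filter on low counts through Cd_R. The list's rule favours high Cd_R levels for the CEP unigenes, so their p-values are no independent evidence. The nitrate transporter NRT2 (Cluster-14691.17907), a high-affinity nitrate carrier, repeated the root layout of the phosphate transporters more steeply. It had 21.7, 2.47 and 4.22 CPM in Cd_R, against 1.05, 0.921 and 24.6 CPM in CK_R, so Cd_R replicate 1 and CK_R replicate 3 were again the highest. Nitrate reductase Cluster-14691.36103, the enzyme that reduces nitrate to nitrite, had 133, 27.3 and 34.7 CPM in Cd_R, against 20.7, 27.9 and 37.9 CPM in CK_R, with the same libraries highest in each group. Other unigenes of the list did not share this layout. Nitrate reductase Cluster-14691.46130 had 149, 100 and 142 CPM in Cd_R, against 73.8, 150 and 64.2 CPM in CK_R. CK_R replicate 3 was thus its lowest root library. The iron transporter VIT (Cluster-14691.23657) was lowest in root in Cd_R replicate 1 (0.341 CPM) and CK_R replicate 3 (0.764 CPM). In the organ comparisons, 12 of the 14 unigenes tested were called higher and 2 lower in Cd_R vs Cd_L, beside 23% and 17.9% of all unigenes. In CK_R vs CK_L 0 of 10 were called, beside 39.1%, and the list's rule sets these counts too.

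The unigenes most like each transporter were sought among 61241 others by Pearson's r of log2 CPM, as a description. Over 12 libraries, Cluster-14691.37402 (r = 0.98) and Cluster-14691.59215 (r = 0.96) came closest to transporter 1.4. Among the 147 unigenes named by the study that passed the filter on low counts, most of them in protein synthesis and hormone action, its closest were a unigene for ribosomal protein RPL15 (r = 0.91), cytokinin phosphoribohydrolase, which releases active cytokinin (r = 0.90), and NRT2 (r = 0.90). For transporter 1.7 the closest of all were Cluster-14691.50943 (r = 0.94) and Cluster-29242.0 (r = 0.92). Among the named unigenes its closest were transporter 1.4 itself (r = 0.81), the third PHT1 unigene (r = 0.79) and deoxyhypusine synthase (r = 0.77). Transporter 1.4 was in place 56 of 61241 for transporter 1.7, and transporter 1.7 in place 1183 for transporter 1.4. The 12 libraries share the organ difference, and the named unigenes were listed for it.

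Within the 6 root libraries the transporters were not among the closest unigenes to each other. Transporter 1.7 was in place 7390 of 61241 for transporter 1.4, so 12.1% of unigenes were at least as close, and transporter 1.4 was in place 6173 for transporter 1.7, or 10.1%. The closest unigenes reached r = 1.00 (Cluster-14691.48710 and Cluster-14691.52113 for transporter 1.4, Cluster-14691.44869 and Cluster-14691.34732 for transporter 1.7). Of the named unigenes, ribosomal protein RPS3, cytokinin phosphoribohydrolase and ribosomal protein RPL10a came closest to transporter 1.4 (each r = 0.94). ACC oxidase, which makes ethylene (r = 0.90), a phytosulfokine receptor (r = 0.89) and elongation factor eEF1A (r = 0.85) came closest to transporter 1.7. Both transporters have their highest root levels in Cd_R replicate 1 and CK_R replicate 3, which are among these 6 libraries, and the rankings were not repeated without them.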

How the data were processed

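The authors assembled the reads of all libraries with Trinity, reduced the transcripts to unigenes with Corset, and mapped the reads back with RSEM. They deposited the expected counts of RSEM without normalization or a filter, and each of the 12 columns was assigned to a sample by its name. The submitters' processing notes also name CASAVA 1.8 and DESeq2. The members and lists were chosen with earlier results of these data known.

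Counts were rounded and tested with the quasi-likelihood test of edgeR 4.0.16 in R 4.3.3, with TMM and filterByExpr, in the 6 libraries of each comparison or, for the interaction, in 12 libraries. Benjamini-Hochberg adjustment covered all unigenes tested. An SE is the absolute log2 fold change divided by the square root of F. CPM were scaled on 12 libraries, and log2 CPM had a prior count of 2. Correlations were tested by exact permutation of the pairings. The text names the members, the study's nutrient uptake list, and the unigenes most like each member (2 of all kept by the filter, and 3 of those on the study's functional lists, which hold 212 unigenes). The alternatives were other normalizations, filters, tools, scales and coefficients, a replicate block, and left-out libraries. The tests were also run on simulated data with changed counts in 200 unigenes. That check concerned the sign of the fitted changes, and how many of them were called is not given here. At 3 libraries per group the spread between libraries limits the precision, and counting error adds to it where counts are low. The 12 libraries came from 6 pots in a randomized block scheme, and the records do not tie replicate numbers to pots or blocks. A p-value of a fit sets a group difference against the spread between libraries. The main fits treated libraries as independent, so shared pots are left out of the interaction's SE and p and of the SE of organ differences. Unigene sequences were not used here.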

Additional observations from a re-analysis of the deposited data

How the results depend on the processing

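The calls of Cd_R vs CK_R, Cd_L vs CK_L and the interaction (none) held for both transporters in every alternative run. The lowest adjusted p was 0.742 for transporter 1.4 and 0.815 for transporter 1.7 in root, 0.646 and 0.510 in leaf, and 1.00 for the interaction. In Cd_R vs CK_R, leaving out 1 library gave log2 fold changes of -0.28 to 1.12 for transporter 1.4 and -0.76 to 0.80 for transporter 1.7, and without a filter on low counts transporter 1.7 was at -0.0045. In Cd_L vs CK_L the same ranges were -0.86 to -0.18 and -2.26 to -0.73, and for the interaction 0.37 to 1.69 and 0.79 to 2.34. In Cd_R vs Cd_L they were 1.30 to 2.39 and 1.41 to 2.75, and in CK_R vs CK_L 0.37 to 1.30 and -0.22 to 1.34. Leaving out both root libraries that stood apart removes only 1 of them from an organ comparison, so it repeats the value without Cd_R replicate 1 (1.30 for transporter 1.4 in Cd_R vs Cd_L) or without CK_R replicate 3 (-0.22 for transporter 1.7 in CK_R vs CK_L). The correlation of the transporters in root was 0.55 to 0.89 with 1 library left out, and -0.67 without the 2 libraries farthest from the median, which are Cd_R replicate 1 and CK_R replicate 3. The cause was not tested. For cadmium against control, DESeq2 called 185 DEGs in root, 73 in leaf and 10 for the interaction, where edgeR called 0, and edgeR without a filter called 2 in leaf.

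Replicate numbers were not taken as pairs, since the same-numbered deviations from the group means did not all correlate above 0.1 in any comparison. They correlated at -0.35 to 0.43 between the root groups, -0.39 to -0.11 between the leaf groups, -0.13 to 0.06 between Cd_R and Cd_L, and 0.08 to 0.20 between CK_R and CK_L. Differently numbered libraries correlated at -0.51 to 0.60, -0.22 to 0.30, -0.17 to 0.19 and -0.17 to 0.09 in the same order. Between CK_R and CK_L the same-numbered values were thus mostly the higher, so the check does not exclude pairing there. With the replicate number as a block, transporters 1.4 and 1.7 were at 0.46 and 0.01 for cadmium in root, -0.55 and -1.65 for cadmium in leaf, 1.86 and 2.21 in Cd_R vs Cd_L, 0.83 and 0.61 in CK_R vs CK_L, and 0.91 and 1.18 for the interaction, and the block changed no call.

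With 3 libraries per group, the SD of transporter 1.7 was 71.5% of its mean in Cd_R and 76.4% in CK_R, and its 95% interval in root left changes of -1.72 to 1.73 on the log2 scale undecided.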
